A study of Mus musculus with 6 samples.

Results

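Cytosolic ribosomal protein genes were followed in mouse macrophages given extracellular ADP. Members were the genes whose array name is Rpl or Rps followed by digits, together with Rplp0, Rplp1, Rplp2 and Rpsa, and without the Rps6k kinases. The array carries 181 probes under 81 such names. A probe was kept if the 3 arrays of either group all had it marked as well above background by the scanner software, which left 178 probes of 80 genes among 19575 genes and unnamed features in all. Of the 80 genes, 49 encode proteins of the large subunit and 31 proteins of the small subunit. Choosing the members used names and detection in either group, and no test between the groups. A gene could thus pass through a single group, as Rpl3l did through the control arrays. The one name without a kept probe was Rpl10l, a retrocopy of Rpl10 known from testis, whose 2 probes were well above background on 0 and 2 of the 3 ADP arrays and on 0 and 1 of the 3 control arrays.

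The cells were bone marrow-derived macrophages of C57BL/6 mice, grown for 7 days with medium conditioned by L929 fibroblasts, the source of M-CSF, so that such cultures can hold marrow cells at other stages. The ADP group had 3 arrays from cells stimulated with 100 µM ADP for 6 h, and the control group had 3 arrays from cells given a control treatment for 6 h. Total RNA was labelled with one dye, Cy3, with 1 array for each sample. The labels number the replicates without saying whether they came from separate mice or cultures, so p-values measure only the spread between these samples, which may be technical. In cultured cells measured in bulk, fewer cells of a type and less RNA per cell cannot be told apart.

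Ribosomal proteins fold around the ribosomal RNAs to form the subunits that decode messages and join amino acids. Their messages are among the most abundant of a growing cell, and most begin with a run of pyrimidines after a C at the cap, the terminal oligopyrimidine motif, through which mTOR and Larp1 set how much of each message is translated. A change in translation of this kind need not show in the amount of message, which is what the arrays measure. ADP outside cells is a nucleotide signal read by P2Y receptors, which macrophages carry.

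To show the feature these genes share at their starts, annotated starts were taken from RefSeq (GRCm38.p6), where 61 of the 81 names had an entry. A C followed by at least 4 further C or T letters, searched on the sense strand, stood exactly at an annotated start of 13 of the 61 genes (21.3%), against 813 of 27025 genes (3.01%). Within 10 bases of the start it was found in 37 of the 61 genes (60.7%), against 34.4% of all genes. On the opposite strand the shares were 24.6% of these genes and 38.5% of all genes. These windows of 30 bases begin 6 bases before the annotated start. Capitals mark the pyrimidine run from the C at that start onwards, and in some windows C and T letters also stand directly before it. They are shown because Rps6, Rpl28, Rpl35 and Rplp2 are described below, and Rpl4 is the contrast without a run.
Rps6, chr4:86857344-86857373, minus strand: tcgggcCTCTTTTTCgtgacgcctcccagg
Rpl28, chr7:4792959-4792988, plus strand: gtgtctCTCTTTCCgtctccggccgccata
Rpl35, chr2:39005108-39005137, minus strand: cctttcCTCTTTCTCTCgaaccaggctgct
Rplp2, chr7:141447645-141447674, plus strand: gtcttcCTTTCgccgccggacgccgccgag
Rpl4, chr9:64173381-64173410, plus strand: ctgtgggagcagccgggtagagaggagcgt
The absence of a run from a window says only that these letters do not stand there.

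Levels are given as log2 signal, the log2 of the scanner software's processed signal minus the array's own 75th percentile, taken from the brightest kept probe of each gene. Between 50.3% and 51.9% of probes were well above background on each array, and no member spot was saturated. The arrays lay on 2 slides: slide 1 held ADP replicate 1 with control replicates 1 and 2, and slide 2 held ADP replicates 2 and 3 with control replicate 3. Of 9 macrophage markers all 9 were measured, with a summed signal of 1189 to 1616 times the 75th percentile on ADP arrays and 985 to 1343 times on control arrays. These markers also differed between the slides. Their median on slide 2 minus slide 1 was 0.36 in ADP arrays and 0.41 in control arrays, and the sums were not compared within slides. Of markers of other cells, 5 of 6 for neutrophils, 4 of 4 for fibroblasts, 1 of 3 each for T cells, B cells, dendritic cells and mast cells and 0 of 3 for erythroid cells were measured. Summed neutrophil marker signal was 26.1 to 31.7 on ADP arrays and 22.5 to 24.4 on control arrays. Most of that sum came from a single marker. In 2 of the 5 neutrophil markers the ADP and control values did not overlap, against 19.4% of all features. In the fit below, 0 of the 5 had an adjusted p under 0.05. Summed fibroblast marker signal was 12.4 to 13.7 on ADP arrays and 11.8 to 13.0 on control arrays. Cd3d, Cd3g, Ms4a1, Zbtb46 and Hbb-bt were among those that did not pass the filter. The part of these other cells in the values below was not tested.

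No ribosomal protein gene passed the test between ADP and control macrophages. In a limma fit with all 6 arrays, 0 of 80 members had an adjusted p under 0.05, where 0% of the 19575 features did, and the smallest adjusted p of a member was 0.566. At an unadjusted p under 0.05 the count was 0 of 80 members, against 12.7% of all features. In 0 of 80 members were the 3 ADP values all on one side of the 3 control values, against 19.4% of all features. The members' differences, ADP minus control, nevertheless leaned one way: 70 lay above 0 and 10 below with a median of 0.12, whereas 50.8% of all features lay above 0 with a median of 0.0044. After quantile normalization this lean turned around, with 27 of 80 above 0 and a median of -0.034. Under other scalings it kept its direction. The medians were 0.04 after cyclic loess (56 of 80 above 0), 0.09 with median scaling (64) and 0.20 in the unscaled value table (78). With normexp background correction the median was 0.13 (70 above 0). Large-subunit genes had a median of 0.13 (42 of 49 above 0) and small-subunit genes one of 0.11 (28 of 31 above 0).

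The lean followed the slides. Members' median log2 signal was 7.59, 8.05 and 8.09 on ADP arrays 1 to 3, and 7.70, 7.63 and 8.05 on control arrays 1 to 3. The 3 low values are those of the arrays on slide 1 and the 3 high ones those on slide 2, and each group has arrays at both levels. With the slide as a block in the limma fit, the members' median difference was -0.0066, with 32 above 0 and 48 below, and that of all features was -0.0086 with 48.3% above 0. Within slide 1 the median was -0.025 with 34 of 80 above 0, and within slide 2 it was 0.0066 with 41 of 80 above 0. With the block, 0 of 80 members had an unadjusted p under 0.05, against 24.3% of all features, and 0 had an adjusted p under 0.05, against 0%. The smallest adjusted p of a member was 0.400.

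**Figure D1:**
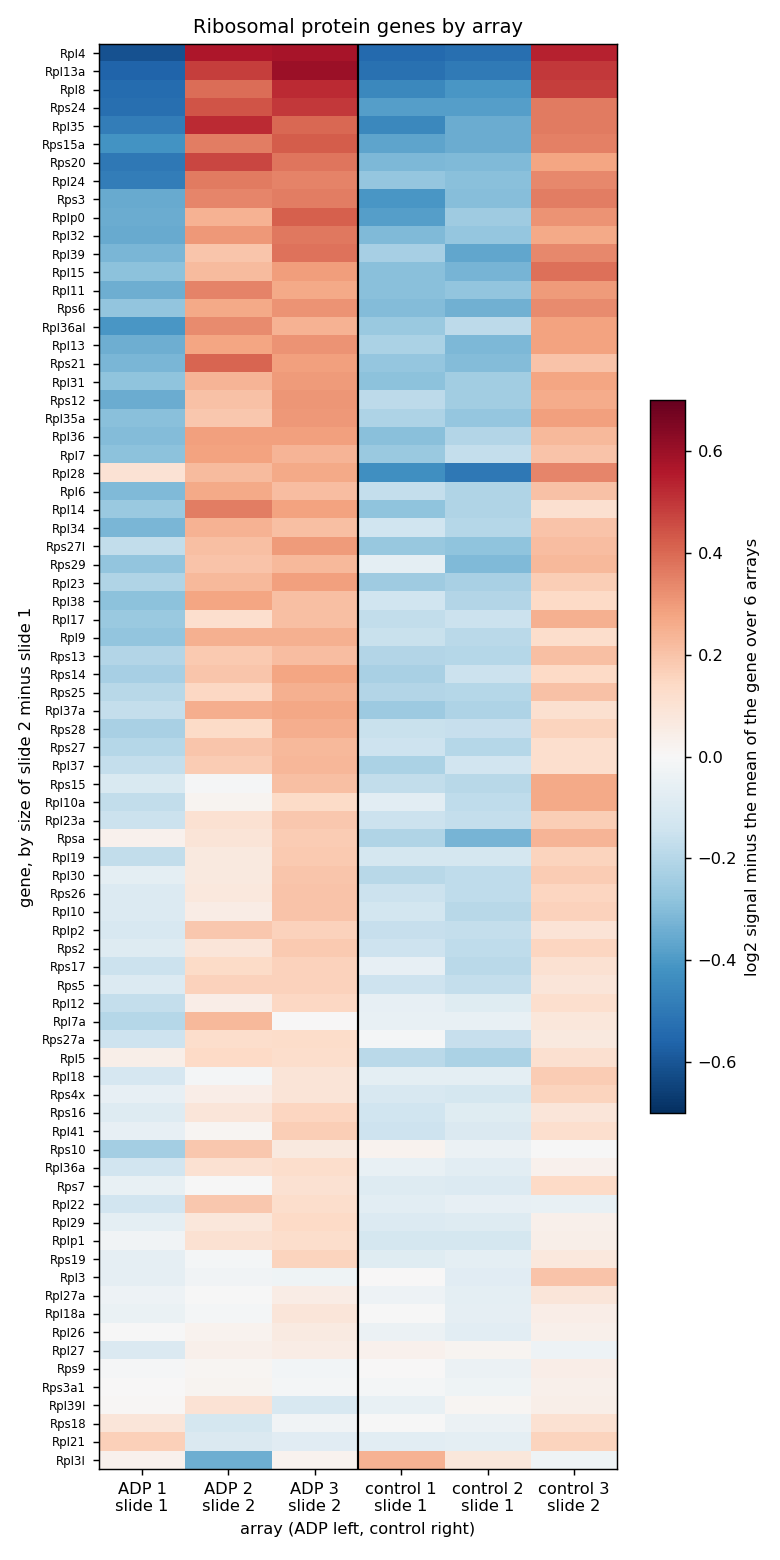
Each row is a ribosomal protein gene (78 of the 80 are drawn) and each column an array, ADP left and control right, with its slide named under it. Colour gives the log2 signal minus the mean of that gene over 6 arrays. Under 75th percentile scaling, ADP arrays 2 and 3 and control array 3 are red and ADP array 1 and control arrays 1 and 2 blue over most rows, and 73 of 80 genes were higher on slide 2 in both groups (33 of 80 under quantile normalization).

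The blocked fit set narrow limits on the difference of single genes. Its 95% intervals reached a median of 0.20 on the log2 scale to either side of the estimate, against 0.40 without the block, and all 80 held 0. For 79 of 80 genes the whole interval lay within a 1.5-fold change in either direction, against 50 of 80 without the block. Rpl28 was the exception, with an interval of -0.16 to 0.63. A pair of further ways of fitting with the slide as a block made calls among all features: trended robust variances called 1939 features (9.91%) and normexp background correction called 1333 (6.81%), and in both 0 of the 80 members were called.

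**Figure D2:**
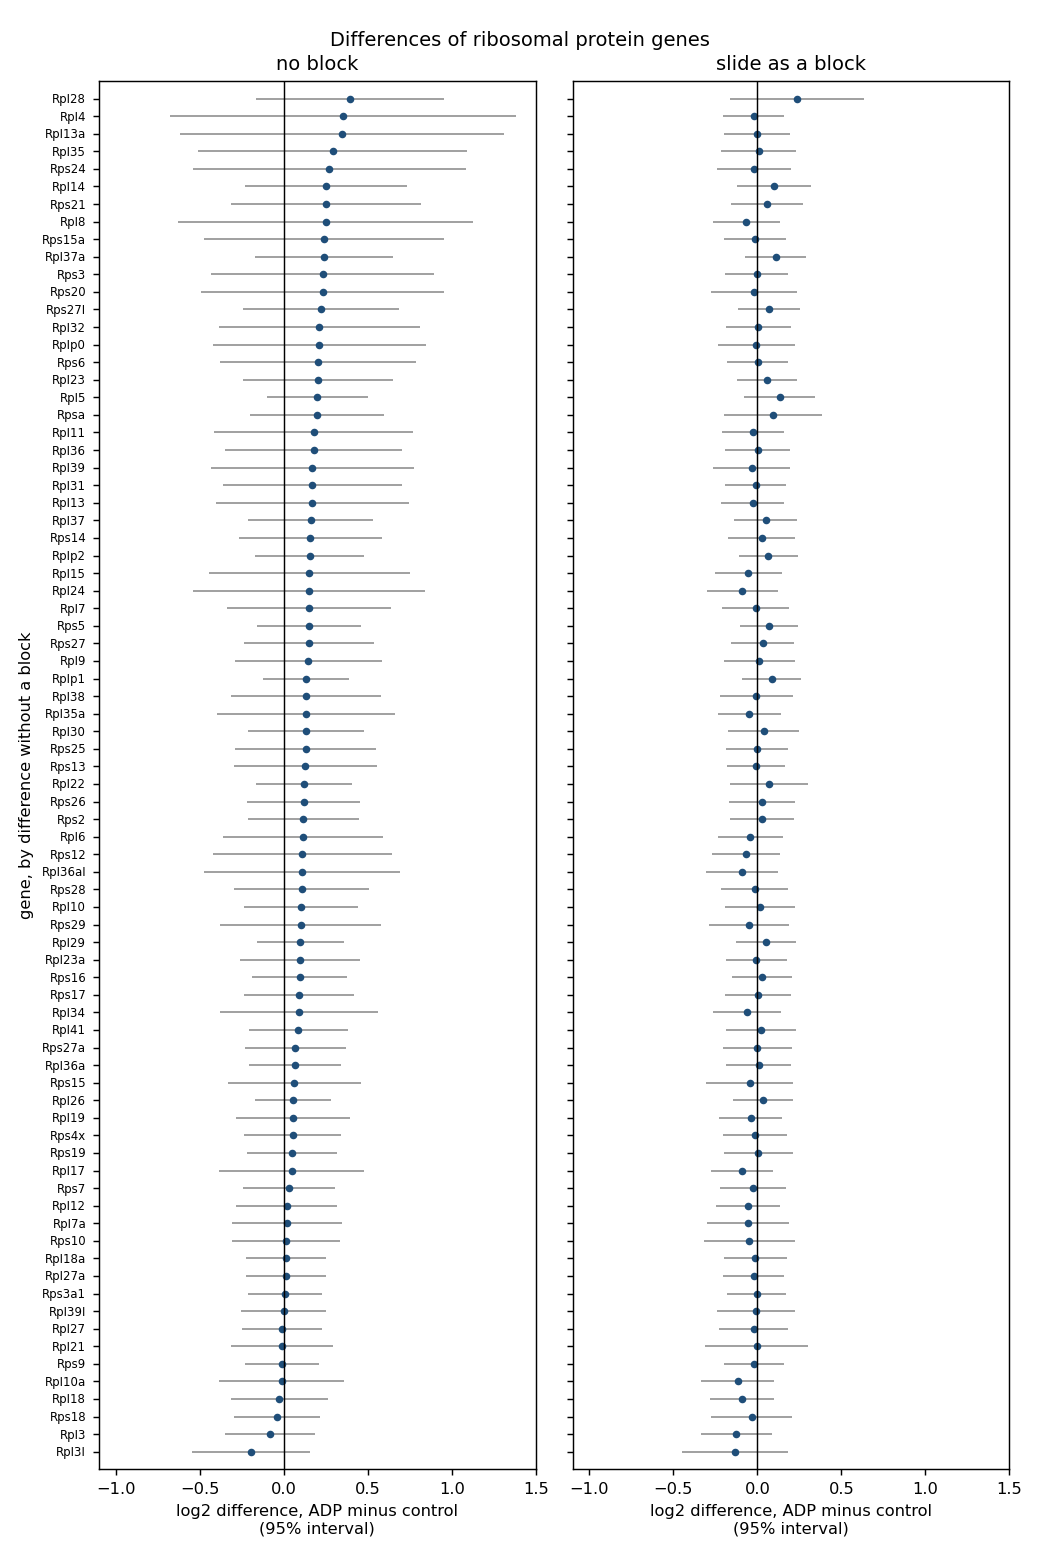
Points give the log2 difference, ADP minus control, of 78 of the 80 ribosomal protein genes, and lines its 95% interval, without a block on the left and with the slide as a block on the right. Under 75th percentile scaling 70 of all 80 genes lay above 0 without the block, on the left (27 of 80 after quantile normalization), and 32 of 80 with it, on the right, where the intervals are narrower and all hold 0.

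Among the genes with the highest difference, Rpl4, which lines the tunnel through which the new chain leaves the ribosome, showed the slides most plainly. Its log2 signal was 5.22, 6.40 and 6.41 on ADP arrays 1 to 3, and 5.29, 5.31 and 6.37 on control arrays 1 to 3. The ADP mean was 6.01 ± 0.68 and the control mean 5.66 ± 0.62 (SD, n = 3 each), a difference of 0.35 ± 0.43 (SE). With the slide as a block the difference was -0.02 ± 0.07, so the 3 slide 2 values and the 3 slide 1 values each lie close together whatever the treatment. Rpl13a, which in human monocytes leaves the ribosome after interferon-gamma to silence inflammatory messages, had values of 6.52, 7.56 and 7.68 on ADP arrays and 6.56, 6.58 and 7.58 on control arrays. Its difference was 0.35 ± 0.40 without the block and -0.0037 ± 0.0779 with it. Rpl35, a large-subunit protein near the tunnel exit, and Rps24, a small-subunit protein mutated in some Diamond-Blackfan anaemia, had differences of 0.29 ± 0.33 and 0.27 ± 0.34, which were 0.0067 ± 0.0891 and -0.02 ± 0.09 with the block.

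Rpl28, a large-subunit protein, had the highest difference of all members and had its values in another order. Its brightest probe read 8.04, 8.16 and 8.21 on ADP arrays 1 to 3, and 7.51, 7.44 and 8.28 on control arrays 1 to 3. The 3 ADP values and control replicate 3 lie together, and control replicates 1 and 2 lie below them. The difference was 0.39 ± 0.23 without the block (limma adjusted p = 0.566) and 0.24 ± 0.16 with it (adjusted p = 0.424). Within slide 1 it was 0.57 and within slide 2 it was -0.10. The difference between the slides was tested in a fit with a treatment by slide term, added after the values were seen: it was -0.66 with an adjusted p of 0.349, and 0 of 19575 features (0%) passed. ADP on slide 1 and control on slide 2 are 1 array each, so this term assumes that a lone array varies like the others, and Rpl28 was picked for the pattern. The other Rpl28 probe gave 6.71, 7.19 and 7.24 on ADP arrays and 6.78, 6.84 and 7.26 on control arrays, with a difference of -0.10 within slide 1 and -0.05 within slide 2, so the 2 probes of this gene disagreed about slide 1.

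The lowest differences were smaller in size. Rpl3l, a paralog of Rpl3 known from striated muscle, was dim, well above background on 2 of 3 ADP arrays and 3 of 3 control arrays. Rpl3l therefore passed the filter through the control group only. Among the 79 members well above background on all arrays, the lowest difference was -0.08. The values of Rpl3l follow. Its values were -4.48, -4.85 and -4.49 on ADP arrays and -4.26, -4.43 and -4.54 on control arrays, a difference of -0.20 ± 0.15 (-0.13 ± 0.13 with the block). Rpl3, which sits near the peptidyl transferase centre, had 7.39, 7.42 and 7.42 on ADP arrays and 7.45, 7.37 and 7.65 on control arrays. Its difference was -0.08 ± 0.11, and -0.13 ± 0.08 with the block, where the 95% interval ran from -0.34 to 0.09. Rps18 and Rpl18, structural proteins of the small and large subunits, had differences of -0.04 ± 0.11 and -0.02 ± 0.12, and in each the ADP and control values overlapped.

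The stalk proteins Rplp0, Rplp1 and Rplp2 recruit the elongation factors to the ribosome. Rplp0 read 8.39, 8.98 and 9.15 on ADP arrays and 8.35, 8.48 and 9.05 on control arrays, with a blocked difference of -0.0058 ± 0.0907. Rplp1 read 8.42, 8.55 and 8.57 on ADP arrays and 8.32, 8.32 and 8.49 on control arrays. Its ADP value was above the control values of the same slide on both slides, by 0.10 on slide 1 and 0.07 on slide 2, but the blocked difference of 0.08 ± 0.07 did not pass the test (adjusted p = 0.513). Rplp2 read 8.52, 8.82 and 8.79 on ADP arrays and 8.47, 8.47 and 8.73 on control arrays. It too was higher with ADP within each slide, by 0.05 on slide 1 and 0.08 on slide 2, with a blocked difference of 0.07 ± 0.07 (adjusted p = 0.620). Rplp0 was at -0.03 within slide 1 and 0.02 within slide 2. The same sign on both slides was found in 27 of 80 members, against 12144 of 19575 features. Over both slides together the ADP and control values of all 3 stalk genes overlapped, and none passed the test.

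Several members have described roles outside the ribosome. Rpl5 and Rpl11 bind Mdm2 together with the 5S RNA and so stabilise p53 when ribosome assembly fails. Rpl5 read 6.11, 6.21 and 6.20 on ADP arrays and 5.88, 5.85 and 6.18 on control arrays, and its blocked difference of 0.13 ± 0.08 had the smallest adjusted p among the members, 0.400. Rpl11 read 8.15, 8.84 and 8.75 on ADP arrays and 8.19, 8.21 and 8.79 on control arrays, with a blocked difference of -0.03 ± 0.07. The groups overlapped in both genes, in Rpl5 through control replicate 3. Rpl23, Rpl26 and Rps7, which also bind Mdm2 or act on p53, had blocked differences of 0.06 ± 0.07, 0.03 ± 0.07 and -0.03 ± 0.08.

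Rps6, the substrate of the S6 kinases that is widely used to read mTOR activity, had 7.40, 7.94 and 7.99 on ADP arrays and 7.38, 7.34 and 8.01 on control arrays. Its difference was 0.20 ± 0.24 without the block and 0.0024 ± 0.0725 with it, and the arrays measure its message and not its phosphorylation. Rps3, which also takes part in NF-kB binding and DNA repair, had a blocked difference of -0.0026 ± 0.0748. Rps19, the protein most often mutated in Diamond-Blackfan anaemia, had one of 0.0042 ± 0.0820. Rpl22, needed for the development of alpha-beta T cells in mice, had one of 0.07 ± 0.09. Rpsa, a small-subunit protein also known as the laminin receptor, read 7.98, 8.04 and 8.13 on ADP arrays and 7.74, 7.62 and 8.19 on control arrays, with a blocked difference of 0.09 ± 0.12. As in Rpl28, Rpsa's ADP value was above both controls on slide 1, by 0.30, and below the control on slide 2, by 0.11, and its treatment by slide term had an adjusted p of 0.515.

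Some paralogs are named apart on the array, and the difference between a paralog and its partner was not tested. Rpl39 and Rpl39l, a paralog known from testis, had blocked differences of -0.04 ± 0.09 and -0.0084 ± 0.0916. For Rpl36a and Rpl36al they were 0.0076 ± 0.0767 and -0.09 ± 0.09, and for Rps27 and Rps27l, a paralog induced by p53, they were 0.03 ± 0.08 and 0.07 ± 0.07. Rpl10, the partner of the unmeasured Rpl10l, had one of 0.01 ± 0.08. Ribosomal protein genes have many processed copies in the genome, and 85 of the 178 kept probes share a run of 20 bases with a probe of another name, among them the brightest probe of 39 of the 80 genes, so signal from such copies may not be told apart from that of the gene. No probe shared such a run with a probe of a different member. The brightest probes of Rps27 and Rps4x are placed by the files on chromosomes 9 and 3, while the genes' RefSeq starts lie on chromosomes 3 and X. Only chromosomes were compared, for 60 genes, so a distant place on the same chromosome was not counted. The files place the brightest Rps2 probe at chr17:42864841-42864900 and the other kept Rps2 probe at chr17:24857583-24857642.

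The members lie at the bright end of the signal scale. By mean signal 29 of the 80 brightest probes were in the top 1% of features and 72 in the top 5%, and 4 were below the top 10%. Other features as bright showed the same lean. The 167 other features in the top 1% had a median difference of 0.16 with 93.4% above 0, and the 740 others between the 95th and 99th percentiles had one of 0.12 with 83.0% above 0. With the slide as a block these medians were 0.03 and 0.03, against -0.0014 and -0.0096 for the members in the same ranges. The unblocked lean is therefore a value the ribosomal protein genes shared with other bright features.

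**Figure D3:**
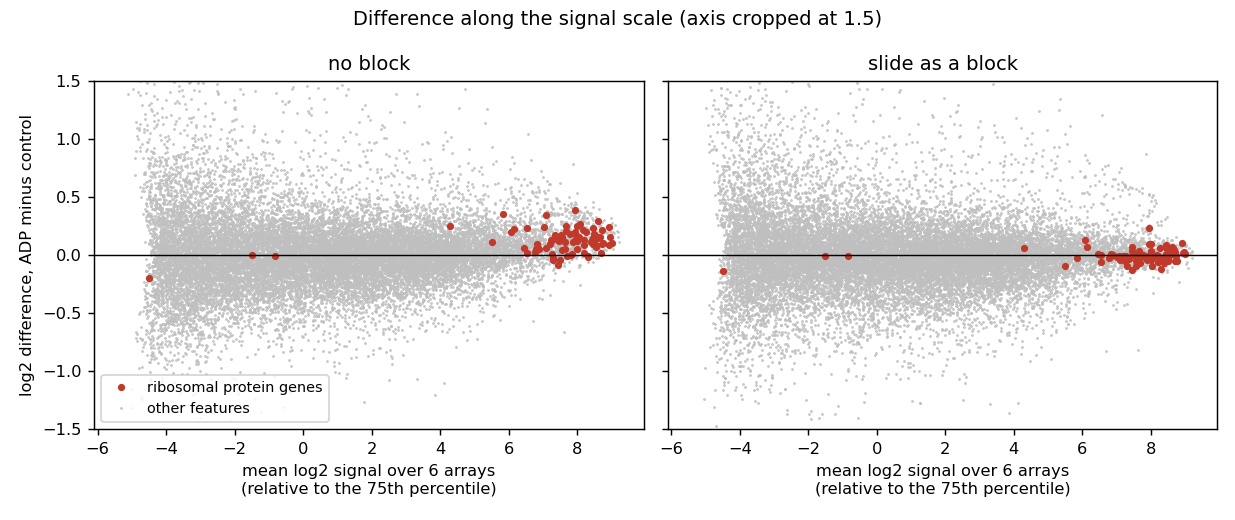
Each point is a feature, with its mean log2 signal over 6 arrays across and its log2 difference, ADP minus control, upwards, without a block on the left and with the slide as a block on the right. Ribosomal protein genes are red and other features grey, and the vertical axis is cropped at 1.5. Under 75th percentile scaling the bright end rises above 0 on the left (after quantile normalization the members' median was -0.034) and lies around 0 on the right.

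The difference between slides was measured in each group on its own. Slide 2 minus slide 1, the members' median was 0.37 in ADP cells and 0.33 in control cells, against 0.03 and 0.07 for all features. Other bright features shifted too. In the top 1% of features the medians were 0.42 and 0.37 for the 167 others, and 0.43 and 0.32 for the members. Between the 95th and 99th percentiles they were 0.20 and 0.24 for the 740 others, and 0.30 and 0.36 for the members. In both groups 73 of 80 members were higher on slide 2, as were 42.1% of all features. After quantile normalization the medians were 0.03 and 0.01 with 33 of 80 higher in both groups, and after cyclic loess 0.13 and 0.06 with 40 of 80. The first component of the members' deviations from their own means held 93.9% of the sum of squares and gave one sign to the 3 arrays of slide 1 and the other to the 3 of slide 2. The spread within the list was wide, between -0.25 and 1.18 in ADP cells and between -0.19 and 1.08 in control cells, with Rpl4 at the top in both.

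Probes for control RNA differed between slides as well. The 10 E1A spike-in probes, printed at 35 spots each, read control transcripts of adenovirus E1A and no mouse gene. One of the bright ones, n9, was 1.11 higher on slide 2 in ADP samples and 0.83 higher in control samples, while n11, also bright, fell by 0.32 in ADP samples and by 0.56 in control samples. The brightest, r60_1, was 0.43 and 0.31 higher. Under 75th percentile scaling 8 of the 10 spike-in probes were lower on slide 2 in both groups. The 2 that were higher were n9 and r60_1. Of the members 73 of 80 were higher under this scaling (33 of 80 after quantile normalization). The 75th percentile itself was 455 to 464 on slide 1 and 545 to 549 on slide 2, which lowers scaled values on slide 2. The spike-in probes were not compared under another scaling, and the 2 dimmest read only -6.88 to -6.18.

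**Figure D4:**
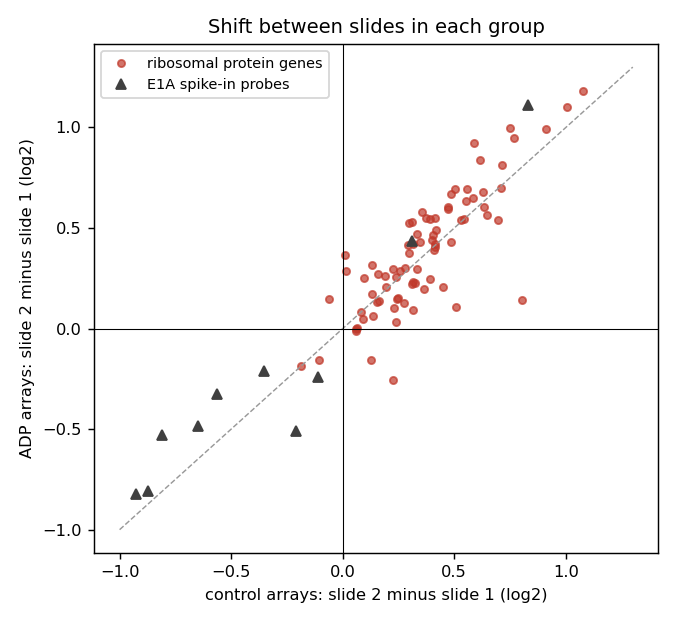
The log2 difference between slide 2 and slide 1 is shown for ADP arrays (upwards) against control arrays (across), for the 80 ribosomal protein genes (circles) and 10 E1A spike-in probes (triangles); the dashed line marks equal values. Under 75th percentile scaling 73 of 80 genes lie in the upper right (33 of 80 under quantile normalization), and spike-in probes lie in both the upper right and the lower left.

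The slide difference varied between probes of the same gene. For 54 genes several probes were kept, up to 7 for Rpl17, and the slide difference of a gene's probes spanned a median of 0.40 on the log2 scale, against 0.07 for their blocked ADP difference. Probes of one gene are not replicates of a condition, since they read the same 6 samples. The pairs below show how far 2 probes of a gene could part. Each sequence is the first 30 of the probe's 60 bases, 5′ to 3′ as the files list it, with adenines in capitals. A span over 60 bases means a probe placed across a gap, and the positions are those of the files (mm9).
Rpsa, high, chr9:120040617-120040676: ctgtgcAggtgcctgAgcAAAgggAAAAAA
Rpsa, low, chr9:120037601-120037660: ttAcAcAAtgtccAgAgcccttAAcgtcct
Rps24, high, chr14:25311190-25312666: tggccAttAtgAgAAgAAAAAgAcctcccg
Rps24, low, chr14:25312695-25315015: AAtgttggtgctggcAAAAAgtgAgtggAg
Rpl7, high, chr1:16091438-16091864: gAgAtgctggcAAcAggAAAgAccAgAtAA
Rpl7, low, chr1:16091865-16091924: tcAAAttAtcttccccAtgAggtgggAtgA
The high probe of Rpsa has 25 adenines in its 60 bases and the low one 18, those of Rps24 have 28 and 19, and those of Rpl7 24 and 20.

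The high Rpsa probe read 6.68, 8.46 and 8.52 on ADP arrays and 6.75, 6.79 and 8.40 on control arrays, which is 1.72 higher on slide 2 as a mean of both groups. The low Rpsa probe read 5.26, 5.18 and 5.23 on ADP arrays and 5.13, 5.14 and 5.28 on control arrays, a slide difference of 0.04. Their ADP minus control differences were 0.58 ± 0.64 and 0.04 ± 0.10 without the block, and 0.0013 ± 0.0840 and 0.03 ± 0.08 with it. Not every probe came closer with the block: the 4 Rpsa probes still spanned -0.20 to 0.09 with it. A pair of Rps27a probes, at 0.30 and 0.24 without the block, were at -0.05 ± 0.11 and 0.30 ± 0.24 with it. The latter Rps27a probe was dim, reading between -4.68 and -3.83. The Rps24 pair had slide differences of 1.62 and 0.24 and blocked ADP differences of -0.15 ± 0.10 and 0.0019 ± 0.0972. The Rpl7 pair had slide differences of 1.25 and -0.04. The blocked ADP difference of the high Rpl7 probe was -0.06 ± 0.09 and that of the low one -0.08 ± 0.08.

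Over all 178 kept member probes, the slide difference rose with the number of adenines in the probe (Pearson's r = 0.61 across probes, against 0.31 across all 26587 kept probes). These points share the 6 arrays, and the r of the probes' mean level with the slide difference was 0.30. For the number of thymines the r was -0.33 across member probes, against -0.30 across all kept probes. For GC percentage it was -0.29, against 0.01. The 24 member probes with 24 or more adenines had a median slide difference of 0.93, and the 8 with 11 or fewer had one of -0.0070. The same bins held medians of 0.24 and -0.14 for other probes. ADP minus control without the block had medians of 0.29 and -0.02 in those 2 bins of member probes. Single probes departed from this order. The slide difference measured in ADP arrays and that measured in control arrays, which share no array, had an r of 0.88 across the 178 probes. Across all kept probes this r was 0.57. In all, 15 of 178 member probes (8.43%) were more than 1 log2 unit higher on slide 2, against 1.33% of all probes. Whether labelling, hybridisation or the cells differed between the slides was not tested.

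**Figure D5:**
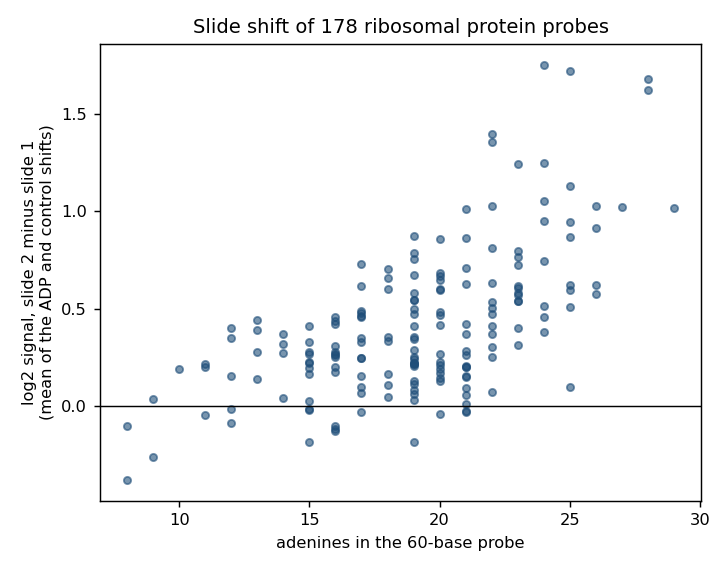
Each point is one of the 178 kept ribosomal protein probes, with the adenines among its 60 bases across and its log2 signal on slide 2 minus slide 1 upwards, as the mean of the ADP and control values under 75th percentile scaling. The 24 probes with 24 or more adenines have a median of 0.93 and the 8 with 11 or fewer one of -0.0070.

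At the level of single probes the treatment gave as little. The 178 probes had a median difference of 0.11 without the block, with 148 above 0, and of -0.0069 with it, with 75 above 0.

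The genes around the ribosomal proteins were taken from 5 lists of translation genes. Of 8 elongation genes, 15 ribosome-linked and other terminal oligopyrimidine messages, 23 initiation genes, 24 regulators and 15 chaperones or stress sensors that were measured, 0 passed the test in any list, without or with the slide block. Their medians without the block were 0.0041, 0.04, -0.0065, -0.05 and -0.01, and with it -0.02, -0.06, -0.02, -0.12 and -0.11. With trended robust variances and the slide block, 2 initiation genes rose and 1 fell, 1 terminal oligopyrimidine message fell, 1 regulator fell, and no elongation gene or chaperone was called, where 9.91% of all features were.

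Eif1, which keeps the scanning ribosome faithful to the start codon, read 7.64, 7.47 and 7.74 on ADP arrays and 7.09, 7.29 and 7.00 on control arrays. All ADP values lay above all control values, and the blocked difference was 0.53 ± 0.12 (adjusted p = 0.0804, and 0.0210 with trended variances). The ADP and control values did not overlap in 3 of the 23 initiation genes, Eif1 among them, against 19.4% of all features. Eif4e, the cap-binding protein, had a blocked difference of 0.32 ± 0.09 (adjusted p = 0.110, and 0.0430 with trended variances), though without the block the groups overlapped. Eif4a2, a helicase that partners it, was lower in all 3 ADP arrays, at 3.92, 4.07 and 3.89, than in all 3 control arrays, at 4.19, 4.20 and 4.33 (blocked difference -0.31 ± 0.09, adjusted p = 0.108, and 0.0386 with trended variances). Npm1, a nucleolar chaperone of ribosome assembly, had a blocked difference of -0.24 ± 0.08 (adjusted p = 0.147, and 0.0480 with trended variances), and Sesn1, a sestrin that restrains mTOR, one of -0.56 ± 0.16 (adjusted p = 0.115, and 0.0431 with trended variances). The Sesn1 groups overlapped, and its difference was -0.28 within slide 1 and -0.85 within slide 2. Other regulators went the other way, with blocked differences of 0.34 ± 0.11 for Sesn2 and 0.82 ± 0.35 for Ddit4. Of the 24 measured regulators, 8 lay above 0 and 16 below with the block. The blocked differences of the 80 ribosomal protein genes ranged from -0.13 to 0.24.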

How the data were processed

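RNA of 6 macrophage samples was read on one-colour arrays of 60-base probes. Per the file headers, the authors scanned them with Agilent Feature Extraction 10.7.1.1, which gave the deposited processed intensity (background-subtracted, unitless) and the other flags per spot. The deposited value table holds the same processed intensity, linear and unscaled.

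Outlier spots were left out and spots of a probe averaged as log2 intensity minus the array's 75th percentile. A probe was kept if well above background (in at least 50% of its spots) on all 3 arrays of a group: 26587 of 55681 probes. The brightest probe stood for a gene. Names were updated through RefSeq accessions for 26582 of the 55681 probes. limma 3.58.1 (R 4.3.3) was fitted to all features, with Benjamini-Hochberg adjusted p-values under 0.05 called. Alternatives covered background, scaling, filters, probes, blocks and left-out arrays. The fit was tested on simulated data. Depth does not apply to arrays, where the 3 arrays per group limit the precision. The members, the gene lists and the named genes (5 highest, 5 lowest, stalk genes, Rpsa, paralogs and genes with roles outside the ribosome) were chosen with earlier results of these data known. Some members and markers are counted but not reported by name here.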

Additional observations from a re-analysis of the deposited data

How the results depend on the processing

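No ribosomal protein gene was called in any of the 31 settings with a test, the one reported included, while all features gave 0 calls except 1939 with trended robust variances and 1333 with normexp background correction, both with the slide as a block. The members' median difference of 0.12 (70 of 80 above 0) turned to -0.034 (27 above 0) after quantile normalization, -0.025 (34) within slide 1, and with the slide as a block to -0.0066 (32; the same with trended variances), -0.052 (15) after quantile normalization, -0.0020 (38) after cyclic loess, -0.0065 (35) with normexp, -0.016 (24) in the unscaled value table and -0.0069 (75 of 178) over single probes. Without the block it was 0.044 (56) after cyclic loess, 0.094 (64) with median scaling, 0.13 (70) with normexp and 0.20 (78) in the unscaled value table. Within slide 2 it was 0.0066 (41). These combinations with the slide, other than quantile, loess and trended variances, were chosen after seeing the data. Leaving out 1 array gave medians from 0.04 to 0.24 and 61 to 76 genes above 0 without the block, the highest without ADP replicate 1 (0.24) or control replicate 3 (0.24), and, with the block, 0.0066, 0.0023 and -0.013 without ADP replicates 1, 2 and 3 and -0.0044, -0.0065 and -0.025 without control replicates 1, 2 and 3, with 25 to 42 above 0. In the leave-one-out fits with a lone array in a slide and group, that array is assumed to vary like the others. Without ADP replicate 1, slide 1 holds control arrays only, so the blocked difference is the one within slide 2. Without control replicate 3, slide 2 holds ADP arrays only, so the blocked difference is the one within slide 1. These 2 fits add nothing to the within-slide values. The replicate number as a block left the median at 0.12 with 70 above 0 and 0 calls (smallest adjusted p 0.374 over all features), and the numbers did not pair the arrays, since same-numbered arrays deviated with correlations of 0.42, -0.40 and 0.43. Among the 31 named genes, 195 of 929 values under alternatives changed sign. The cause was not tested. With the slide as a block, a difference as large as the 0.53 of Eif1 did not pass the adjusted test (limma adjusted p = 0.0804).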
